A study of Mus musculus with 126 samples.

Results

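Emp1, Emp2, Emp3 and Pmp22 encode a small family of tetraspan membrane proteins, and their transcripts were followed in mouse embryonic stem cells that had or lacked DNA methyltransferases, with or without a histone deacetylase inhibitor. The 4 genes were taken by symbol from a table of 23420 genes, and all 4 were among the 15822 genes with enough counts to be tested. Emp1 was chosen by its measured levels in the 4 groups, being low in 1 of them. Its levels and differences are therefore given as a description, with no test. Emp2, Emp3 and Pmp22 were taken as its paralogues and were tested.

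The series holds 126 samples, of which the 8 RNA-seq libraries were used, and the other 118 were not analysed here. Wild type cells were J1 embryonic stem cells. The others, called TKO, were labelled as the same strain with Dnmt1-/-, Dnmt3a-/- and Dnmt3b-/-, and the labels used here do not say how many clones they came from. All cells were kept on gelatin in medium with serum and leukaemia inhibitory factor. Exposure lasted 36 h, either to Trichostatin A (TSA), given in the labels as 5 ng/µl, or to its solvent DMSO at 0.0033%. That gave 4 groups of 2 libraries: wild type with DMSO, wild type with TSA, TKO with DMSO and TKO with TSA. The submitters call the replicates biological, and p-values here measure the spread between these libraries. In such bulk samples, fewer cells of a type and less RNA per cell cannot be told apart.

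The family is named for peripheral myelin protein 22, Pmp22, a component of the compact myelin that Schwann cells wrap around peripheral axons, whose gene dosage matters in inherited neuropathies. The epithelial membrane proteins Emp1, Emp2 and Emp3 share its fold, with several membrane-spanning segments, and belong with the claudins of tight junctions to one superfamily. Members reach the cell surface through the endoplasmic reticulum and have been linked to cell adhesion, growth control and the trafficking of integrins. The methyltransferases missing from TKO methylate cytosine in CpG pairs, and histone deacetylases, which TSA inhibits, remove acetyl groups from histone tails.

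Levels are normalised CPM, counts scaled to a common library total. Dnmt1 was between 123 and 134 CPM in the 4 TKO libraries and between 360 and 464 in the 4 wild type libraries. Dnmt3a was between 25.9 and 39.1 CPM in TKO and between 152 and 236 in wild type, and Dnmt3b between 43.6 and 76.1 and between 343 and 595. All TKO libraries were thus below all wild type libraries for each targeted gene, with transcripts of each still counted. Library totals ran from 13280631 to 15542527 counts, so 3 counts were worth 0.183 to 0.243 normalised CPM.

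The 4 genes lie on different chromosomes, and no exon base of any of them is shared with another gene in the table. Emp1 spans 5 exons on the plus strand of chromosome 6 (135362931 to 135383173, mm10) with 2721 exon bases. Emp2 spans 5 exons on the minus strand of chromosome 16 (10281749 to 10313968) with 3440 exon bases. Emp3 spans 6 exons on the minus strand of chromosome 7 (45918023 to 45921426) with 972 exon bases. Pmp22 spans 5 exons on the plus strand of chromosome 11 (63131510 to 63159546) with 1801 exon bases. The 250 bases before the RefSeq start nearest the table's gene start are printed, since CpG is the pair that the missing enzymes methylate. They are written 5′ to 3′ on the gene's strand, from RefSeq on GRCm38.p6, at chr6:135362681-135362930 (plus), chr16:10313969-10314218 (minus), chr7:45921427-45921676 (minus) and chr11:63131207-63131456 (plus), with each CpG in capitals.
Emp1: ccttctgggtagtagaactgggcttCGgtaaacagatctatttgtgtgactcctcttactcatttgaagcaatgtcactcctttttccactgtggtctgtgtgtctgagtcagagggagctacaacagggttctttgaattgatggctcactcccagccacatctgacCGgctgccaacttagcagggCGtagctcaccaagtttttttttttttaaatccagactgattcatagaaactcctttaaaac
Emp2: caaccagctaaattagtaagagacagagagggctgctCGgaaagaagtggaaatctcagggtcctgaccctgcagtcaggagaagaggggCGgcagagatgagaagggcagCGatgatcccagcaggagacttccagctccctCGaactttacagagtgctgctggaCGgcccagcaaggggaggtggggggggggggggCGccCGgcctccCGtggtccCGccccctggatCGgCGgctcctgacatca
Emp3: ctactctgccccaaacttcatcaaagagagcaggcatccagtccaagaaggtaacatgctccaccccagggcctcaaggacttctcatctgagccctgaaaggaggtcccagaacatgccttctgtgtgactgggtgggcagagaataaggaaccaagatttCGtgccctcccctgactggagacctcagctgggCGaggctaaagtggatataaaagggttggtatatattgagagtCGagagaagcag
Pmp22: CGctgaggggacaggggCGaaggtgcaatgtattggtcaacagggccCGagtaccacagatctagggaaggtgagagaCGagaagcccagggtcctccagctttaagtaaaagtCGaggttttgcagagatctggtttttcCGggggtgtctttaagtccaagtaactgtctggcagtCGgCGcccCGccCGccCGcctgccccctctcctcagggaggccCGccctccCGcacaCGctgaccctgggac

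Emp1 and Emp3 had sparse CpG before their starts, whereas Emp2 and Pmp22 had more. Emp1 had 3 CpG in its 250 bases and Emp3 also had 3, while Emp2 had 11 and Pmp22 had 14. Over the 32841 such RefSeq windows the median was 6 CpG, with quartiles of 2 and 16, and 29.0% of windows held fewer CpG than Emp1's. GC content was 44.4% for Emp1, 62.8% for Emp2, 52.0% for Emp3 and 61.2% for Pmp22. Core letters of 5 motifs were searched on both strands: the palindromic NRF1 core, CCGGAAG for GABPA, GGGCGG for SP1, CACGTG for MAX and AAGATGGC for YY1. The SP1 letters occurred 2 times in the Emp2 window and 3 times in the Pmp22 window, against 32.7% of all windows with at least 1 match. The other motifs had no match in the 4 windows, where 3.74% of all windows held the NRF1 core, 6.91% those of GABPA, 6.02% those of MAX and 1.56% those of YY1. The Pmp22 window lies before a RefSeq start 53 bases upstream of the table's gene start. Pmp22 has 3 further RefSeq starts, whose windows hold 3, 14 and 27 CpG.

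Emp1, whose product was first known from epithelial and tumour cells, was the most abundant family member in DMSO and the least abundant in TKO cells with TSA. Its counts were 467 and 534 in wild type with DMSO, 484 and 477 in wild type with TSA, 547 and 584 in TKO with DMSO, and 28 and 35 in TKO with TSA. As normalised CPM these were 33.3 and 43.3, then 29.5 and 32.4, then 37.4 and 42.5, and last 1.89 and 2.20. The 2 libraries of TKO with TSA were below the other 6. Both libraries of wild type with TSA were below the remaining 4, which overlapped. The fitted level with TSA was 19.4-fold lower than with DMSO in TKO, a log2 fold change of -4.28. In wild type the same comparison gave a log2 fold change of -0.30. Between genotypes, TKO minus wild type was 0.06 in DMSO and -3.91 in TSA, the latter a 15.0-fold lower level. With 1 library left out, the DMSO value ran from -0.13 to 0.26, so it has no settled sign, and the wild type TSA value ran from -0.48 to -0.11. The difference between the TSA effects in the genotypes, TKO minus wild type, was -3.97 on the log2 scale. Emp1 counts in TKO with TSA were still 28 or more, above the floor of 3 counts.

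**Figure D1:**
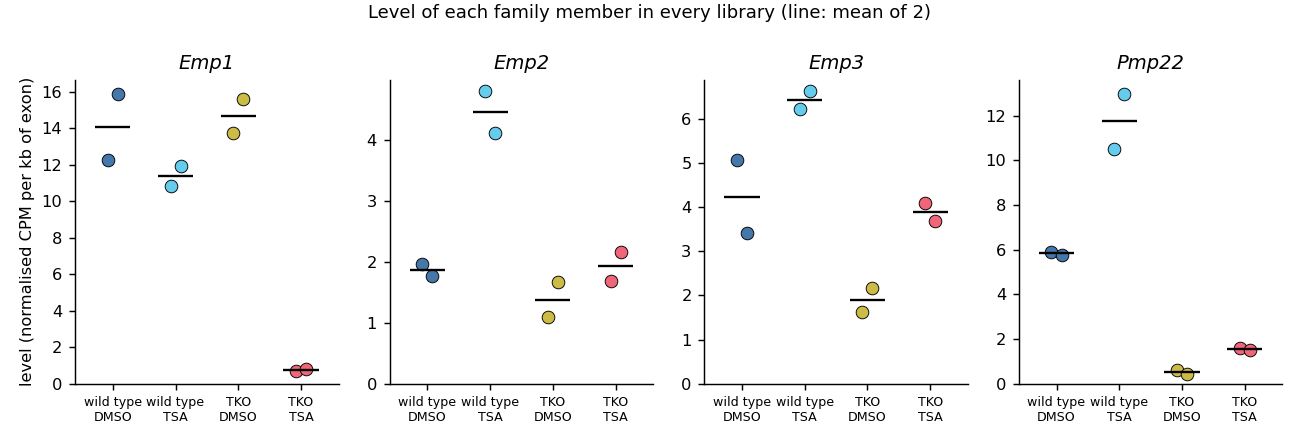
Levels of Emp1, Emp2, Emp3 and Pmp22, with 1 panel per gene. Points are the 2 libraries of each group and bars are their means. Emp1 lies between 29.5 and 43.3 normalised CPM in 3 groups and at 1.89 and 2.20 in TKO with TSA. Per kilobase of exon, these levels are 10.9 to 15.9 CPM in the 3 groups, and 0.696 and 0.807 in TKO with TSA. Pmp22 is lowest in TKO with DMSO.

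Pmp22, the myelin protein of the family, was lower in TKO than in wild type in both treatments and higher with TSA than with DMSO in both genotypes. Its counts were 149 and 128 in wild type with DMSO, 310 and 344 in wild type with TSA, 16 and 11 in TKO with DMSO, and 43 and 43 in TKO with TSA. The corresponding normalised CPM were 10.6 and 10.4, 18.9 and 23.4, 1.09 and 0.800, and 2.91 and 2.70. None of the 4 groups overlapped another. In DMSO, Pmp22 was 11.0-fold lower in TKO, with a log2 fold change of -3.45 ± 0.25 (SE) and an edgeR adjusted p of 1.09e-05. In that comparison 20.4% of tested genes were called at an adjusted p below 0.05, 9.62% higher and 10.7% lower. In TSA it was 7.52-fold lower in TKO, with a log2 fold change of -2.91 ± 0.20 and an edgeR adjusted p of 9.61e-06, where 18.4% of genes were called, 10.0% higher and 8.38% lower.

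TSA raised Pmp22 2.01-fold in wild type, a log2 fold change of 1.01 ± 0.18 (SE, edgeR adjusted p 0.000858). In TKO the rise was 2.93-fold, a log2 fold change of 1.55 ± 0.29 (SE, edgeR adjusted p 0.000862). Such rises were common, since 52.8% of tested genes were called with TSA in wild type, 27.0% higher and 25.9% lower, and 58.7% in TKO, 30.8% higher and 27.9% lower. The difference between these TSA effects was 0.54 ± 0.34 on the log2 scale and was not called (edgeR adjusted p 0.517), where 1.35% of genes had a called interaction, 0.879% higher and 0.468% lower. With TSA, TKO cells did not reach the wild type DMSO level of Pmp22. They remained 3.74-fold below it, with a log2 fold change of -1.90 ± 0.21 (SE, edgeR adjusted p 2.24e-05), in a comparison with 61.9% of genes called, 31.7% higher and 30.2% lower.

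Emp2, a membrane protein that acts on the surface display of integrins, rose with TSA in wild type. Its counts were 95 and 75 in wild type with DMSO, 271 and 209 in wild type with TSA, 55 and 79 in TKO with DMSO, and 86 and 119 in TKO with TSA. In normalised CPM the libraries were at 6.78 and 6.08, 16.5 and 14.2, 3.76 and 5.75, and 5.82 and 7.47. The 2 libraries of wild type with TSA were above all other libraries, and TKO with TSA overlapped wild type with DMSO. The rise in wild type was 2.39-fold, with a log2 fold change of 1.26 ± 0.22 (SE, edgeR adjusted p 0.000896). In TSA, Emp2 was 2.31-fold lower in TKO than in wild type, with a log2 fold change of -1.21 ± 0.22 (SE, edgeR adjusted p 0.00399). The TSA comparison within TKO gave 0.49 ± 0.24 and was not called (edgeR adjusted p 0.102), although it was called without replicate 2 of TKO with DMSO, at 0.82 and an edgeR adjusted p of 0.0350. TKO against wild type in DMSO gave -0.44 ± 0.25 and was not called (edgeR adjusted p 0.237). The interaction was -0.77 ± 0.33, also not called (edgeR adjusted p 0.315), so the TSA effect on Emp2 was not shown to differ between genotypes.

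Emp3, a family member known for promoter methylation and silencing in several tumours, had the least settled calls. Its counts were 69 and 41 in wild type with DMSO, 99 and 95 in wild type with TSA, 23 and 29 in TKO with DMSO, and 59 and 57 in TKO with TSA. The normalised CPM were 4.92 and 3.32, 6.04 and 6.45, 1.57 and 2.11, and 3.99 and 3.58. Wild type with DMSO overlapped TKO with TSA, and the other pairs of groups did not overlap. In DMSO, Emp3 was 2.25-fold lower in TKO, with a log2 fold change of -1.17 ± 0.29 (SE, edgeR adjusted p 0.0164). That call was lost without replicate 1 of wild type with DMSO, where the value was -0.87, and without replicate 1 of TKO with DMSO, where the edgeR adjusted p was 0.120. In TKO, TSA raised it 2.05-fold, with a log2 fold change of 1.04 ± 0.29 (SE, edgeR adjusted p 0.00988), a call that was lost without replicate 1 of TKO with DMSO (edgeR adjusted p 0.0862). In wild type the TSA comparison gave 0.59 ± 0.25 and was not called (edgeR adjusted p 0.0701), but it was called at 0.91 without replicate 1 of wild type with DMSO (edgeR adjusted p 0.0347). TKO against wild type in TSA gave -0.72 ± 0.25 and was not called (edgeR adjusted p 0.0704), but it was called in 4 of 15 alternatives, among them those without replicate 1 or replicate 2 of wild type with DMSO (edgeR adjusted p 0.0484 and 0.0494). The interaction gave 0.45 ± 0.39 (edgeR adjusted p 0.664).

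When TSA-treated TKO cells were set against DMSO-treated wild type cells, the paralogues gave different values. Emp2 differed by 0.05 ± 0.24 on the log2 scale (edgeR adjusted p 0.869) and Emp3 by -0.13 ± 0.27 (edgeR adjusted p 0.683), neither of them called. Pmp22 was called lower, as given above, and Emp1 was 18.6-fold lower in the fit, with a log2 fold change of -4.22. All these comparisons share groups of libraries, so a gene's values in them are not independent of each other.

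**Figure D2:**
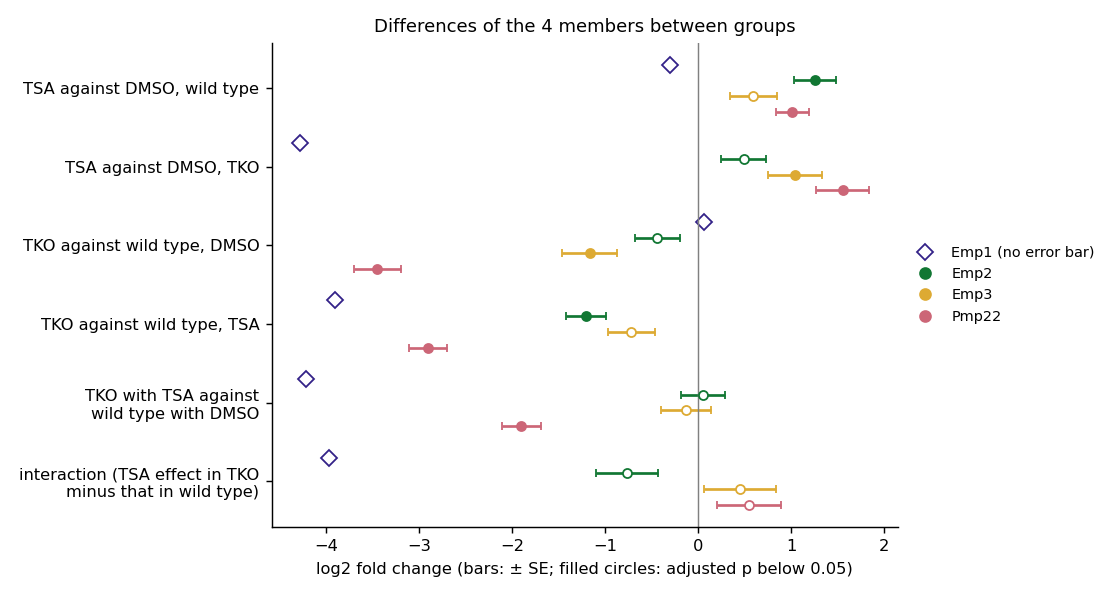
Log2 fold change of each member in the 6 comparisons, with bars of 1 SE for Emp2, Emp3 and Pmp22, filled points where the edgeR adjusted p was below 0.05, and open diamonds for Emp1, which was not tested. Emp1 stands at -4.28 for TSA in TKO and -0.30 in wild type, while the 3 paralogues lie above 0 for TSA in both genotypes.

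Levels of different genes were compared as CPM per kilobase of exon. In wild type with DMSO, Emp1 was at 14.1 ± 2.58 (SD, n = 2), followed by Pmp22 at 5.83 ± 0.102, Emp3 at 4.24 ± 1.16 and Emp2 at 1.87 ± 0.144, and no neighbours in that order overlapped. In wild type with TSA, Pmp22 at 11.7 ± 1.74 and Emp1 at 11.4 ± 0.742 overlapped, above Emp3 at 6.43 ± 0.298 and Emp2 at 4.47 ± 0.482. In TKO with DMSO, Emp1 at 14.7 ± 1.32 was followed by Emp3 at 1.89 ± 0.390 and Emp2 at 1.38 ± 0.408, which overlapped, and by Pmp22 at 0.526 ± 0.115. In TKO with TSA the order was Emp3 at 3.89 ± 0.300, Emp2 at 1.93 ± 0.340, Pmp22 at 1.56 ± 0.0822 and Emp1 at 0.752 ± 0.0788, with no overlap between neighbours.

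The make-up of the family differed between groups. Emp1 supplied 53.9% ± 7.50 of the summed level per kilobase in wild type with DMSO, 33.5% ± 0.0832 in wild type with TSA, 79.5% ± 1.48 in TKO with DMSO and 9.24% ± 0.927 in TKO with TSA (SD, n = 2). Emp3 supplied 47.9% ± 3.90 in TKO with TSA, against 10.2% ± 1.01 in TKO with DMSO. Pmp22 supplied 34.4% ± 2.80 in wild type with TSA and 2.90% ± 0.938 in TKO with DMSO. The summed level of the 4 genes was 26.0 ± 1.17 CPM per kilobase in wild type with DMSO, 34.0 ± 2.30 in wild type with TSA, 18.5 ± 2.00 in TKO with DMSO and 8.13 ± 0.0361 in TKO with TSA. Without Emp1, the sums in the same order were 11.9 ± 1.41, 22.6 ± 1.56, 3.80 ± 0.683 and 7.38 ± 0.0427. The sum with Emp1 was lowest in TKO with TSA, whereas the sum without it was lowest in TKO with DMSO.

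**Figure D3:**
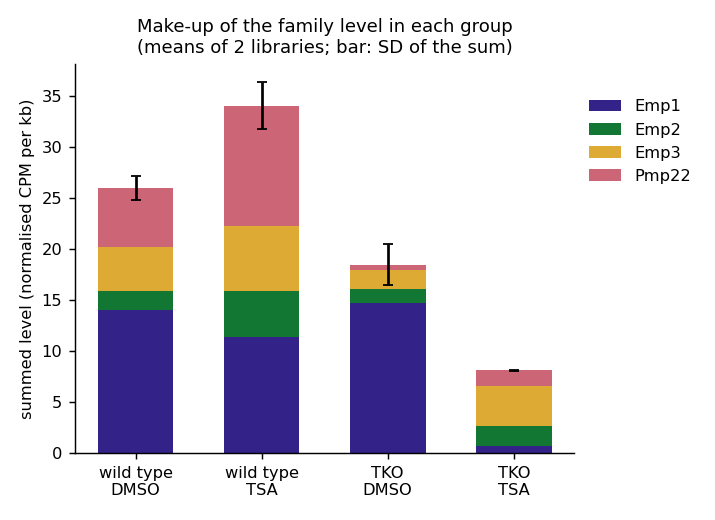
Mean CPM per kilobase of exon of the 4 members stacked in each group, with a linear axis from 0. The stack is 34.0 in wild type with TSA and 8.13 in TKO with TSA, where Emp1 is 0.752 of it.

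The tested genes next to Emp1 in the table were called higher with TSA in both genotypes. Distances given for neighbours run between gene starts. Gsg1, a germ cell gene of the same fold 108.6 kb upstream, had 2 and 2 counts in wild type with DMSO, 35 and 33 in wild type with TSA, 7 and 5 in TKO with DMSO, and 18 and 19 in TKO with TSA. It was called higher with TSA in wild type (edgeR adjusted p 0.000112) and in TKO (edgeR adjusted p 0.00994). Grin2b, for an NMDA receptor subunit, starts 810.6 kb downstream and had 7 and 7, 40 and 22, 8 and 3, and 24 and 23 counts in the same order of groups. It rose with TSA by 1.88 ± 0.46 in wild type and 1.96 ± 0.50 in TKO on the log2 scale (SE, edgeR adjusted p 0.00573 and 0.00570). Gsg1 and Grin2b passed the count filter through their TSA libraries, so a fall like that of Emp1 could hardly be seen in them. Gm8994, with 40 to 60 counts in the DMSO libraries, rose with TSA by 1.93 ± 0.35 in wild type and 3.21 ± 0.33 in TKO (SE, edgeR adjusted p 0.000995 and 1.74e-05). Pbp2, the remaining neighbour, had too few counts to be tested.

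Around the paralogues, Tmem143, next to Emp3, fell by 0.95 ± 0.13 on the log2 scale with TSA in TKO (SE, edgeR adjusted p 0.000141), opposite to Emp3. Ccdc114 and Abcc6, on its other side, rose in wild type by 0.59 ± 0.16 and 1.91 ± 0.45 (edgeR adjusted p 0.00908 and 0.00452) and were not called in TKO. Near Emp2, Rpl39l rose in wild type by 0.69 ± 0.13 (edgeR adjusted p 0.00144) and was not called in TKO. Nubp1 fell by 0.54 ± 0.11 in wild type and 0.63 ± 0.11 in TKO (edgeR adjusted p 0.00168 and 0.000504), and Atf7ip2 was called in neither. Hs3st3b1, a heparan sulfate sulfotransferase gene, starts 790.8 kb from the start of Pmp22. It rose with TSA by 1.97 ± 0.18 in wild type and 1.77 ± 0.17 in TKO (SE, edgeR adjusted p 2.32e-05 and 1.19e-05). In DMSO it was higher in TKO by 0.89 ± 0.19 (SE, edgeR adjusted p 0.00736), where Pmp22 was lower. Cox10, a gene for haem A synthesis beyond it, fell with TSA by 0.69 ± 0.12 in wild type and by 0.53 ± 0.11 in TKO (SE, edgeR adjusted p 0.000608 and 0.00218). Of the 13 tested neighbours of the 4 members, none had a called interaction in edgeR, a count that says little beside the 1.35% of all genes called. In DESeq2 1 was called, against 401 of the 15822 genes. At an unadjusted p below 0.05 in edgeR there were 6, and the all-gene share at that limit is not given here.

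**Figure D4:**
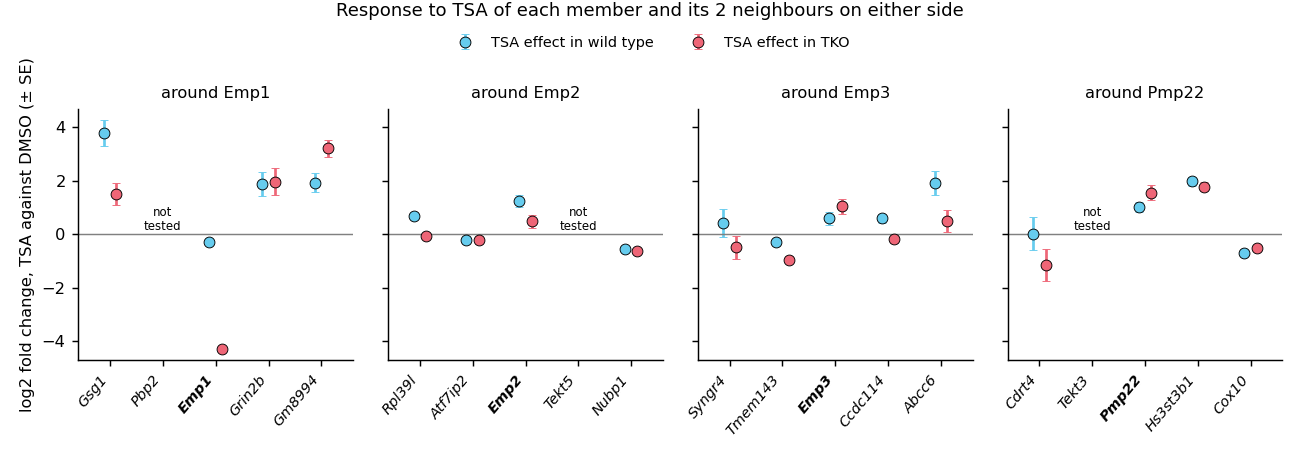
Log2 fold change with TSA, in each genotype, of the 4 members and the tested genes next to each of them in the table, with bars of 1 SE except for Emp1. Gsg1, whose wild type value rests on 2 counts in each DMSO library, Grin2b and Gm8994 lie above 0 in both genotypes, beside Emp1 at -0.30 and -4.28.

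The genes whose levels followed Emp1 most closely over the 8 libraries were ranked by Pearson r of log2 CPM among 14420 genes, as a description, since libraries of a group share their treatment. Among the first 6 were Haus7 (0.973), Fxyd6 (0.970), Tmem143 (0.968), 3110040N11Rik (0.963) and Dlg1 (0.962). None of these 5 is a family member, and most differed far less between groups. Haus7 was at a mean of 40.6, 41.6 and 40.1 CPM in the 3 groups where Emp1 was high and 30.4 in TKO with TSA. Fxyd6, a regulator of the sodium pump, was at 196 ± 22.1, 171 ± 48.1 and 168 ± 27.3 CPM (SD, n = 2) in those groups and at 36.2 ± 4.03 in TKO with TSA. The paralogues ranked far lower, with an r of 0.0796 for Emp2, -0.118 for Emp3 and 0.220 for Pmp22. Ranked by Euclidean distance instead, only Fxyd6 stayed among the first 6, which then held Gap43, Ltb, Il23a, Tdgf1 and Foxr2.

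Genes level elsewhere but lower in TKO with TSA were counted as a description, by limits chosen after the Emp1 values were known. Emp1 was picked for that pattern, so its own place in the count was fixed in advance. Of 14421 genes averaging 1 CPM or more, 5736 had group means within 0.5 log2 units of each other in the 3 groups other than TKO with TSA. Among these, 20 were more than 1 log2 unit lower in TKO with TSA than the mean of those groups, and only Emp1 (-4.05) and Fxyd6 (-2.28) were more than 2 lower. Genes that varied more among those 3 groups were not counted, such as Gap43 and Il23a, at -3.26 and -3.50 with TSA in TKO.

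**Figure D5:**
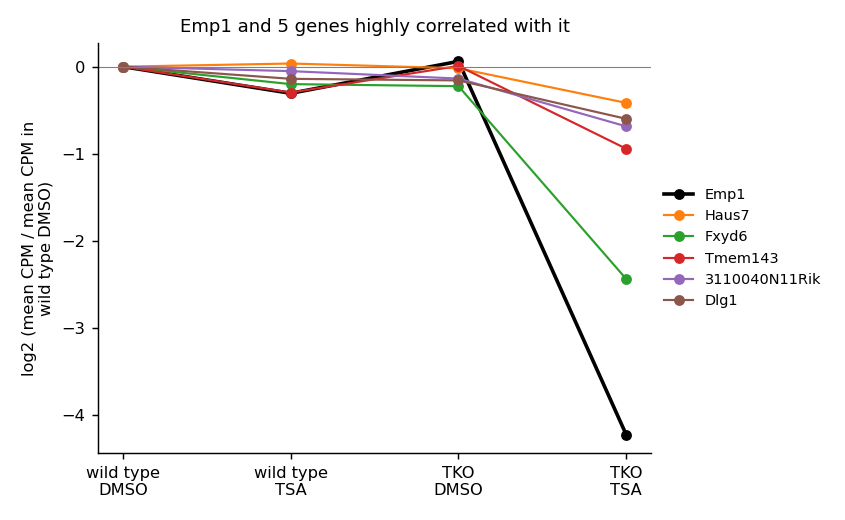
Group mean log2 CPM, relative to wild type with DMSO, of Emp1 and 5 of the genes with the highest r to it. All are lowest in TKO with TSA, but only Emp1 and Fxyd6 are more than 2 log2 units below the other groups' mean.

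The wider superfamily was described by a list of 29 genes, of which 27 were in the table and 17 passed the count filter. With TSA in wild type 10 of the 17 rose and 2 fell, with a median log2 fold change of 0.65 against 0.01 for all genes, of which 27.0% rose and 25.9% fell. In TKO 10 rose and 0 were called lower in edgeR, with a median of 1.38 against 0.04 for all genes, of which 30.8% rose and 27.9% fell. The count of lower genes was also 0 at an unadjusted p below 0.05 and 0 in DESeq2. Cldn10, Cldn11, Cldn23 and Gsg1, called higher in both genotypes, had at most 7 counts in each DMSO library. They passed the count filter through their TSA libraries, and a fall with TSA could hardly be seen in them. The counts of rises and falls and the medians with TSA therefore depend in part on that filter. In TKO against wild type, 2 were higher and 7 lower in DMSO, with a median of -0.44 against -0.01 and all-gene shares of 9.62% and 10.7%. In TSA 2 were higher and 2 lower, against all-gene shares of 10.0% and 8.38%. None of the 17 had a called interaction in edgeR, against 1.35% of all genes. In DESeq2 2 were called, against 401 of the 15822 genes. At an unadjusted p below 0.05 in edgeR there were 10, and the all-gene share at that limit is not given here. The most abundant was Cldn4, an epithelial tight junction protein, at 220 ± 48.9 CPM in wild type with DMSO, 411 ± 1.93 in wild type with TSA, 137 ± 2.21 in TKO with DMSO and 407 ± 91.1 in TKO with TSA (SD, n = 2). It rose with TSA by 0.90 in wild type and 1.57 in TKO on the log2 scale (edgeR adjusted p 0.000840 and 1.93e-05). Perp, a p53 target of desmosomes, was at 121 ± 36.1, 186 ± 4.53, 43.1 ± 4.70 and 119 ± 11.0 CPM in the same order. It rose with TSA by 0.62 in wild type and 1.46 in TKO on the log2 scale (edgeR adjusted p 0.00868 and 4.41e-05). In DMSO, Cldn4 was lower in TKO with a log2 fold change of -0.69 (edgeR adjusted p 0.0120) and Perp with one of -1.49 (edgeR adjusted p 0.000248).

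Of 13 genes for described binding or signalling partners of the family, all tested, 4 rose and 2 fell with TSA in wild type, and 5 rose and 1 fell in TKO. The median log2 fold changes were 0.03 and 0.01. Of all genes 27.0% rose and 25.9% fell in wild type, and 30.8% rose and 27.9% fell in TKO. The counts of rises therefore do not set the partners apart. In TKO against wild type, 2 were higher and 5 lower in DMSO, where 9.62% of all genes were called higher and 10.7% lower. In TSA 1 was higher and 5 were lower, where 10.0% of all genes were called higher and 8.38% lower. Itgb1, the integrin beta subunit whose surface level Emp2 is known to affect, was at 682 and 694 CPM in wild type with DMSO and TSA and at 354 and 343 in TKO. Relative to wild type, it was lower in TKO, at -0.94 in DMSO and -1.02 in TSA on the log2 scale (edgeR adjusted p 0.000648 and 0.000532). Other integrin genes differed from it. In DMSO, Itgb4 was lower in TKO at -0.81 and Itgb3 higher at 1.27 (edgeR adjusted p 0.0217 and 0.00360). Itga6, Itgav, Canx and Rer1 were not called in that comparison. Cd44, a hyaluronan receptor, was at 8.79, 17.5, 0.708 and 5.58 CPM in wild type with DMSO, wild type with TSA, TKO with DMSO and TKO with TSA. Its log2 rise with TSA was 0.99 in wild type and 2.97 in TKO (edgeR adjusted p 0.00313 and 3.10e-05), and its level, like that of Pmp22, was lowest in TKO with DMSO. The interaction of Cd44 was 1.98 ± 0.41 (SE, edgeR adjusted p 0.0450), a call lost in 9 of 14 alternatives. Cav1 also had a called interaction, on 2 and 1 counts in TKO with DMSO.

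Markers of other cell types were read in the same libraries. Embryonic stem cell markers, 8 genes, summed to 2127 to 2334 CPM per kilobase in wild type with DMSO, 1287 to 1463 in wild type with TSA, 2513 to 2740 in TKO with DMSO and 1313 to 1443 in TKO with TSA, and none was at 0 in any library. Fibroblast or mesenchyme markers, 10 genes, summed to 14.1 to 14.4, 30.3 to 32.5, 7.35 to 8.09 and 19.9 to 25.4 in the same order, with at most 1 of them at 0 in a library. Of the 9 tested, 6 rose and 1 fell with TSA in wild type, where 27.0% of all genes rose and 25.9% fell, and 9 rose in TKO, where 30.8% of all genes rose. Lum and Postn had at most 8 counts in each DMSO library and passed the count filter through their TSA libraries. In DMSO 1 was higher and 3 were lower in TKO, where 9.62% and 10.7% of all genes were, and 5 were not called. Their sum was thus higher with TSA and lower in TKO with DMSO, as Pmp22 was, and their part in the Pmp22 and Emp3 results was not tested. In TSA-treated TKO against DMSO-treated wild type, 6 of the 9 were higher and 2 lower, against 31.7% and 30.2% of all genes. Pmp22 was lower in that comparison. Schwann cell and myelin markers, 9 genes, summed to 10.9 to 13.2, 11.8 to 12.7, 10.6 to 12.2 and 8.54 to 9.23, with none at 0. The largest part of that sum was Prx, which fell with TSA in both genotypes (log2 fold changes -0.64 and -1.35, edgeR adjusted p 0.0184 and 0.000185). Of the 7 tested, 4 rose and 2 fell in wild type and 3 rose and 2 fell in TKO, with medians of 0.85 and 1.23. The all-gene shares were 27.0% and 25.9% in wild type, and 30.8% and 27.9% in TKO. Squamous epithelium markers, 6 genes led by Sfn, summed to 50.0 to 110, 248 to 291, 20.0 to 21.3 and 145 to 145, so their sum in TKO was higher with TSA than with DMSO, where Emp1 was lower. Endoderm markers, 7 genes led by Lama1 (36.0 in TKO with DMSO), summed to between 11.7 and 14.3 in the wild type libraries and between 36.7 and 45.0 in the TKO libraries. Trophoblast markers, 6 genes, summed to 24.5 to 25.3, 75.5 to 76.9, 14.4 to 20.8 and 75.4 to 79.2. The similar sums with TSA hide opposite members, with 3 called higher and 2 lower in TKO, against 10.0% and 8.38% of all genes. Tfap2c was at 40.4 in wild type and 66.2 in TKO with TSA, and Krt7 at 21.9 and 1.78.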

How the data were processed

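The data are 8 RNA-seq libraries, from DNase-treated total RNA depleted of ribosomal RNA and sequenced as paired reads with a strand-directional kit, per the labels. The authors deposited a raw read count per gene and library, with the exon coordinates and summed exon length in bases of each gene as the other deposited unit. Per the submitters' processing notes, TopHat2 2.0.13, featureCounts 1.4.5-p1, edgeR 3.22.3 and mm10 were named. How strand and multi-mapping reads were handled, and the annotation, are not given in the sources used here.

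Genes were filtered with filterByExpr and counts scaled by TMM in edgeR 4.0.16 (R 4.3.3). One quasi-likelihood model with 4 group means was fitted to all 8 libraries, leaving 4 residual degrees of freedom, with a common biological coefficient of variation of 10.3%. Two-sided p-values were adjusted by Benjamini-Hochberg over 15822 genes and called below 0.05. The interaction subtracts the wild type TSA effect from the TKO one. Standard errors are approximate. Levels are TMM-scaled CPM, and the floor of 3 counts covers counting error only. Replicates differed beyond sampling noise (chi-square per degree of freedom 12.2, 6.59, 5.28 and 8.47). Scripts were tested on simulated data.

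Named genes were the 4 members, the 2 genes on either side of each, the 6 with the highest r to Emp1 among genes of at least 1 mean CPM, and, per list, the 4 of highest level per length and up to 4 with a called interaction. One gene that this rule names is not reported here. The members and lists were chosen with earlier results of these data known. Alternatives were DESeq2 1.42.0, scaling by RLE size factors, total counts or upper quartile, no filter, fits of only the groups compared, a replicate block, and leaving out each library.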

Additional observations from a re-analysis of the deposited data

Results flagged for a closer look

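The TSA effect differed between genotypes, by the interaction test in edgeR, for 2 of the 13 partner genes, against 1.35% of all genes, and both differences rest on few counts. Cav1, a caveolar coat protein, had an interaction of 4.02 on the log2 scale (edgeR adjusted p 0.0361), with counts of 267 and 151 in wild type with DMSO, 103 and 79 in wild type with TSA, 2 and 1 in TKO with DMSO, and 7 and 14 in TKO with TSA. At 1 to 2 counts in TKO with DMSO, its size is uncertain. Cd44 had an interaction of 1.98 ± 0.41 (SE, edgeR adjusted p 0.0450), with 9 and 11 counts in TKO with DMSO. Over 14 alternatives added after seeing the data, the Cav1 call was lost in 6, each with 1 library left out. The Cd44 call was lost in 9, at 1.93 with total counts, 1.91 with the upper quartile and between 1.57 and 2.30 with a library left out. Replicate 2 of TKO with DMSO was among the libraries that ended the Cav1 call (edgeR adjusted p 0.184).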

How the results depend on the processing

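All 15 alternatives kept the direction and the call of Pmp22 in the 5 comparisons of groups, and of Emp2 both for TKO in TSA and for TSA in wild type. With total counts as the scaling, the median of all genes moved from 0.01 to 0.22 for TSA in wild type and from 0.04 to 0.19 in TKO. Emp1 for TSA was then -0.10 in wild type and -4.13 in TKO, Emp3 for TSA in wild type was 0.79 and called (edgeR adjusted p 0.0238), Emp2 for TSA in TKO was 0.64 and called (0.0446), and Emp3 for both changes together (TSA-treated TKO against DMSO-treated wild type) turned to 0.036. With the upper quartile, Emp3 for TSA in wild type was 0.74 and called (0.0294). With only the groups compared in the fit, Emp3 for TKO in TSA was -0.74 and called (0.0486). Replicate numbers are shared between groups, but nothing says that they pair libraries (r of same-numbered deviations 0.0673 to 0.325). With the replicate block, Emp3 was called for TSA in wild type (0.59, adjusted p 0.0472) and for TKO in TSA (-0.72, adjusted p 0.0391), 633 genes had a called interaction, and no other call on the paralogues changed. Without the filter 488 genes, and with DESeq2 401, had a called interaction, against 213. By distance, 1 of the 6 genes most like Emp1 was shared. With a library left out, Emp3 ranged from 0.34 to 0.91 for TSA in wild type, 0.83 to 1.25 for TSA in TKO, -1.42 to -0.87 for TKO in DMSO, -0.80 to -0.64 for TKO in TSA (called without either replicate of wild type with DMSO) and -0.39 to 0.18 for both changes, where it turned without replicate 1 of wild type with DMSO. Emp2 ranged from 0.21 to 0.82 for TSA in TKO and -0.15 to 0.21 for both changes, at -0.03 without replicate 2 of wild type with DMSO. The Emp1 interaction ranged from -4.17 to -3.79. Genes called ranged from 1458 to 3331 for TKO in DMSO, 941 to 3443 for TKO in TSA and 10 to 410 for the interaction. Where no cause is given, the cause was not tested. At 11 to 16 counts for Pmp22 in TKO with DMSO and 23 to 29 for Emp3, counting error alone is sizeable.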
